A study of Mus musculus with 36 samples.

Results

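Flna and Emd are adjacent X-linked genes, and the share of their RNA that came from the inactive X chromosome (Xi) was followed in 36 libraries of chromatin-associated RNA (ChrRNA-seq) from 8 mouse XX embryonic stem cell lines. They are 2 of the 252 X-linked genes measured in all, and both are present in each of the deposited tables. The pair was chosen on the day 7 values of SMCHD1 KO against iXist-ChrX, of E147A against Halo-SMCHD1 and of Y353C against Halo-SMCHD1, where Flna (all of these comparisons) and Emd (Y353C) were already known to be higher, so those comparisons are described here without a test.

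X chromosome inactivation silences one of the X chromosomes of female mammals. Xist RNA coats the future Xi and starts silencing, and SMCHD1, a non-canonical SMC protein with a GHKL ATPase domain, is recruited to the Xi and is needed to keep part of its genes silent. LRIF1 binds SMCHD1 and heterochromatin protein 1. Flna encodes filamin A, which crosslinks actin filaments, and Emd encodes emerin, a protein of the inner nuclear membrane.

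All lines derive from iXist-ChrX, an F1 hybrid of 129S and Cast in which a TetOn promoter, switched on by doxycycline (dox), drives Xist on the 129S chromosome, so that reads from 129S are Xi reads and reads from Cast are Xa (active X) reads. SMCHD1 KO was made directly in iXist-ChrX. Halo-SMCHD1 carries an N-terminal Halo tag on the native protein together with eGFP-CIZ1, and is the parent of LRIF1 KO and of the lines with E147A, Y353C, G137E or K518E on both Smchd1 alleles. By earlier in vitro work that the study cites, done on the isolated ATPase domain, E147A abolishes ATP hydrolysis, Y353C strongly lowers it, and G137E and K518E raise it, and the full-length protein may differ. Each line is a single clone, so a difference between lines cannot be told apart from a difference between clones, and p values measure only the spread between repeat differentiations or, for the 24 h comparison, between lines with 1 library each per stage. Cells were collected uninduced and after 24 h with 1 µg/ml dox (1 library each in 6 lines), at day 5 of differentiation under dox (2 libraries each of Halo-SMCHD1, G137E and K518E) and at day 7 under dox (3 libraries each of Halo-SMCHD1 and G137E, and 2 of each other line). SMCHD1 KO and iXist-ChrX were analysed at day 7 only.

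The measured value is Xi/(Xi+Xa), the fraction of a gene's allelic reads that came from the 129S X. The read numbers behind the fractions are not given, so no counting error is shown, and the spread between libraries is the only error. Several Emd fractions equal ratios of small whole numbers, so few allelic reads may lie behind them. Ratios between Emd means may then rest on few Xi reads. The mutated genes are autosomal and cannot be checked in X-linked tables. The iXist-ChrX columns carry another clone name and were assigned by day and replicate number, with the line by elimination. One of the E147A day 7 libraries has a replicate number that the labels do not give, and it stood apart, with a median over 249 genes of 0.101 against 0.0526 in the other E147A library.

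In mm10, Flna (ENSMUSG00000031328.15) lies on the minus strand of chromosome X from 74223460 to 74246534 and Emd (ENSMUSG00000001964.14) on the plus strand from 74254686 to 74257893, as the tables give them. Both are protein coding. Their 5′ ends face each other across 8152 bases of the deposited intervals, with no other measured or annotated gene between them. The GENCODE annotation of Flna reaches further into this gap, to 74249820. Reads were counted over whole transcripts, introns included, with strand taken into account, and no annotated gene overlaps either interval.

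The 250 bases before each deposited start are shown because the genes are transcribed away from each other across the gap between them. They come from RefSeq (GRCm38.p6), read 5′ to 3′ on the strand of the gene, at chrX:74246535-74246784 for Flna and chrX:74254437-74254686 for Emd. Capitals mark GGGCGG or its reverse complement CCGCCC, the core of the GC box.
Flna: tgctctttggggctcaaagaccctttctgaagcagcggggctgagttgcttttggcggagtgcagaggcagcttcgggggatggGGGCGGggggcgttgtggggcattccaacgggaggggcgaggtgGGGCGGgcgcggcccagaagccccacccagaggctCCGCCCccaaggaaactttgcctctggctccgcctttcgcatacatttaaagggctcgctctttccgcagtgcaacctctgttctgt
Emd: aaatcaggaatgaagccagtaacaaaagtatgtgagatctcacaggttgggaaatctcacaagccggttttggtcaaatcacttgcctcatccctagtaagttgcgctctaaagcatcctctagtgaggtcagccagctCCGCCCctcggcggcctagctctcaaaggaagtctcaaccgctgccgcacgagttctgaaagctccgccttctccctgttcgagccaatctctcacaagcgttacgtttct

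The Flna window, which lies inside the longer GENCODE annotation of Flna, holds 15 CG dinucleotides, 63.6% G and C, and 3 GGGCGG matches. The Emd promoter holds 12 CG, 51.2% G and C, and 1 GGGCGG match. GGGCGG, searched on both strands, is found in 32.7% of 32851 promoters of this length and in 54.8% of the 259 promoters of measured genes, and the median number of CG is 6 over all promoters and 12 over those of measured genes. CCAAT on either strand occurs 1 time at Emd and not at Flna, and in 33.8% of all promoters. TATAAA on either strand is in neither window, against 12.4% of all promoters. These matches are letters in a window and were not tied to any factor.

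Before induction both alleles of Flna were read about equally. The Xi fraction of Flna was 0.509 in Halo-SMCHD1, 0.525 in LRIF1 KO, 0.521 in E147A, 0.518 in Y353C, 0.522 in G137E and 0.528 in K518E. The 6 lines thus lay close together. Emd was more spread, at 0.489 in Halo-SMCHD1, 0.563 in LRIF1 KO, 0.582 in E147A, 0.556 in Y353C, 0.480 in G137E and 0.587 in K518E.

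After 24 h with dox the Xi fraction of both genes had fallen in every line. Flna was at 0.225 in Halo-SMCHD1, 0.231 in LRIF1 KO, 0.236 in E147A, 0.229 in Y353C, 0.25 in G137E and 0.174 in K518E. K518E was the lowest, at 32.9% of its uninduced value, and the other lines kept 43.9% to 47.8%. Emd was at 0.375 in Halo-SMCHD1, 0.247 in LRIF1 KO, 0.358 in E147A, 0.333 in Y353C, 0.318 in G137E and 0.206 in K518E. K518E was again lowest, at 35.0% of its uninduced value, and Halo-SMCHD1 kept the most, 76.7%.

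With line as a block, limma gave a change in log2 odds (the log2 ratio of Xi to Xa reads, with 0.01 added to each fraction) of -1.87 for Flna (SE 0.11, adjusted p = 6.28e-07, lower in 6 of 6 lines) and of -1.42 for Emd (SE 0.22, adjusted p = 0.000256, lower in 6 of 6 lines). Nearly all genes fell: 231 of 239 passed the adjusted threshold of 0.05 (96.7%), of which 230 were lower (96.2%) and 1 higher, and 221 were lower in all 6 lines (92.5%). Set against the median gene of each library, Flna fell further, by 0.26 on the log2 odds scale (SE 0.065, limma adjusted p = 0.00855, below the median change in 6 of 6 lines). Emd was at 0.19 on that scale (SE 0.20, limma adjusted p = 0.405), above the median change in 4 lines and below it in 2. On the same relative scale 171 of 239 genes (71.5%) passed the threshold, 87 below the median gene and 84 above it, so that a departure from the median gene was common. The share of genes below the median change in all 6 lines was not computed.

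**Figure D1:**
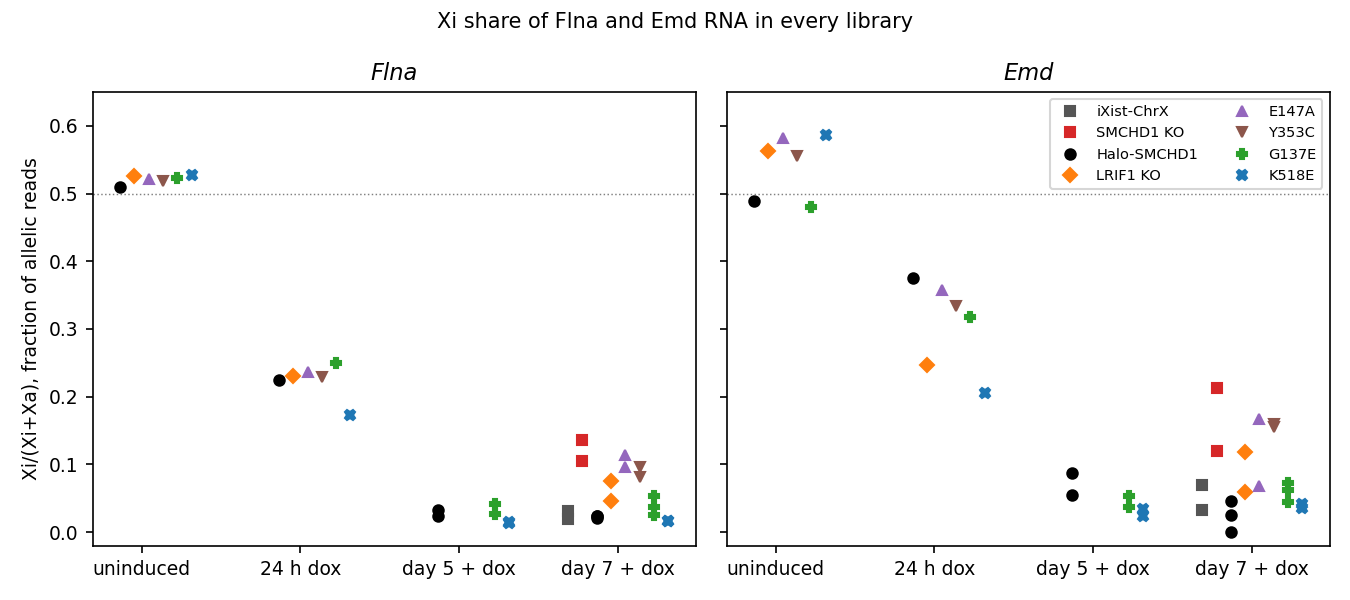
Xi/(Xi+Xa) (vertical axis, fraction) of Flna and Emd in every library at the 4 stages (horizontal axis), with a symbol for each line and a dotted line at equal reads from both alleles. Flna falls from between 0.509 and 0.528 before dox to between 0.174 and 0.25 after 24 h in all 6 lines. At day 7 some lines lie apart.

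At day 5 the Xi share of Flna was already a few percent. Its libraries were at 0.0330 and 0.0241 in Halo-SMCHD1, at 0.0269 and 0.0413 in G137E, and at 0.0137 and 0.0156 in K518E. The K518E libraries were below those of Halo-SMCHD1 without overlap, and G137E overlapped Halo-SMCHD1. Emd was at 0.0556 and 0.0870 in Halo-SMCHD1, at 0.0526 and 0.0370 in G137E, and at 0.0243 and 0.0335 in K518E. Both K518E and G137E lay below Halo-SMCHD1 without overlap.

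That K518E was lower at day 5 was shared by most genes: in 60.7% of 242 genes both K518E libraries were below both Halo-SMCHD1 libraries. The mean of K518E was 0.514 times that of Halo-SMCHD1 for Flna and 0.405 times for Emd. In limma the difference in log2 odds was -0.66 for Flna (SE 0.29, 95% interval -1.31 to -0.0026, adjusted p = 0.343) and -1.11 for Emd (SE 0.66, 95% interval -2.58 to 0.36, adjusted p = 0.376). Neither passed the threshold after adjustment. With the library median subtracted the differences were -0.044 for Flna (limma adjusted p = 0.952) and -0.50 for Emd (limma adjusted p = 0.857). No gene passed as lower, and 1 gene of 242 passed (0.413%), Rab39b, which was higher in K518E and is named here after its value was seen. That call was not made with untransformed fractions, where 1 gene passed and was lower, nor with only the compared libraries, where 2 passed and were lower. At an unadjusted p under 0.05 limma gave 31. For G137E, 30 of 242 genes were below Halo-SMCHD1 in both libraries (12.4%). The limma difference was 0.19 for Flna (SE 0.29, 95% interval -0.46 to 0.84, adjusted p = 1) and -0.59 for Emd (SE 0.66, adjusted p = 1), and 0 of 242 genes passed (0%), with 7 at an unadjusted p under 0.05. Without G137E replicate 2 the difference of Flna turned to -0.057, and without G137E replicate 1 it was 0.44. Leaving out 1 library moved the difference of Emd between -0.90 (without Halo-SMCHD1 replicate 1) and -0.29 (without replicate 2). The mean of K518E was 0.430 times that of G137E for Flna and 0.644 times for Emd.

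At day 7 some lines lay apart for Flna and others overlapped. Flna was at 0.0215, 0.0234 and 0.0239 in Halo-SMCHD1 and at 0.0305 and 0.0193 in iXist-ChrX. It was at 0.106 and 0.135 in SMCHD1 KO, at 0.114 and 0.0961 in E147A (the latter in the library of unmatched number) and at 0.0964 and 0.0820 in Y353C. LRIF1 KO had 0.0758 and 0.0459. The 3 Halo-SMCHD1 libraries were tightly grouped, and every library of these loss lines lay above every library of the unmutated lines. SMCHD1 KO, E147A and Y353C were used to choose Flna, so this is no separate result. The share of all genes with this joint pattern was not computed, and the share for each line against its control is given below.

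Flna was at 0.0531, 0.0252 and 0.0368 in G137E and at 0.0166 and 0.0163 in K518E. From low to high, the day 7 means of Flna were 0.0165 ± 0.000192 in K518E (SD, n = 2), 0.0229 ± 0.00124 in Halo-SMCHD1 (SD, n = 3), 0.0249 ± 0.00792 in iXist-ChrX (SD, n = 2), 0.0384 ± 0.0140 in G137E (SD, n = 3), 0.0609 ± 0.0212 in LRIF1 KO (SD, n = 2), 0.0892 ± 0.0101 in Y353C (SD, n = 2), 0.105 ± 0.0125 in E147A (SD, n = 2) and 0.121 ± 0.0210 in SMCHD1 KO (SD, n = 2). Between neighbours in this order, the libraries of K518E and Halo-SMCHD1 and those of LRIF1 KO and Y353C did not overlap, and all other neighbours overlapped.

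Emd had a similar order with a wider spread. It was at 0.0247, 0 and 0.0455 in Halo-SMCHD1, with replicate 2 listed at 0, and at 0.0690 and 0.0333 in iXist-ChrX. It was at 0.120 and 0.213 in SMCHD1 KO, at 0.167 and 0.0685 in E147A (the latter in the library of unmatched number), at 0.159 and 0.155 in Y353C and at 0.0588 and 0.118 in LRIF1 KO. G137E had 0.0619, 0.0444 and 0.0725, and K518E 0.0356 and 0.0413. The means ran from 0.0234 ± 0.0228 in Halo-SMCHD1 (SD, n = 3) through 0.0384 ± 0.00408 in K518E, 0.0511 ± 0.0252 in iXist-ChrX, 0.0596 ± 0.0141 in G137E, 0.0882 ± 0.0416 in LRIF1 KO, 0.118 ± 0.0694 in E147A and 0.157 ± 0.00315 in Y353C to 0.167 ± 0.0664 in SMCHD1 KO, and the libraries of each pair of neighbours in this order overlapped.

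**Figure D2:**
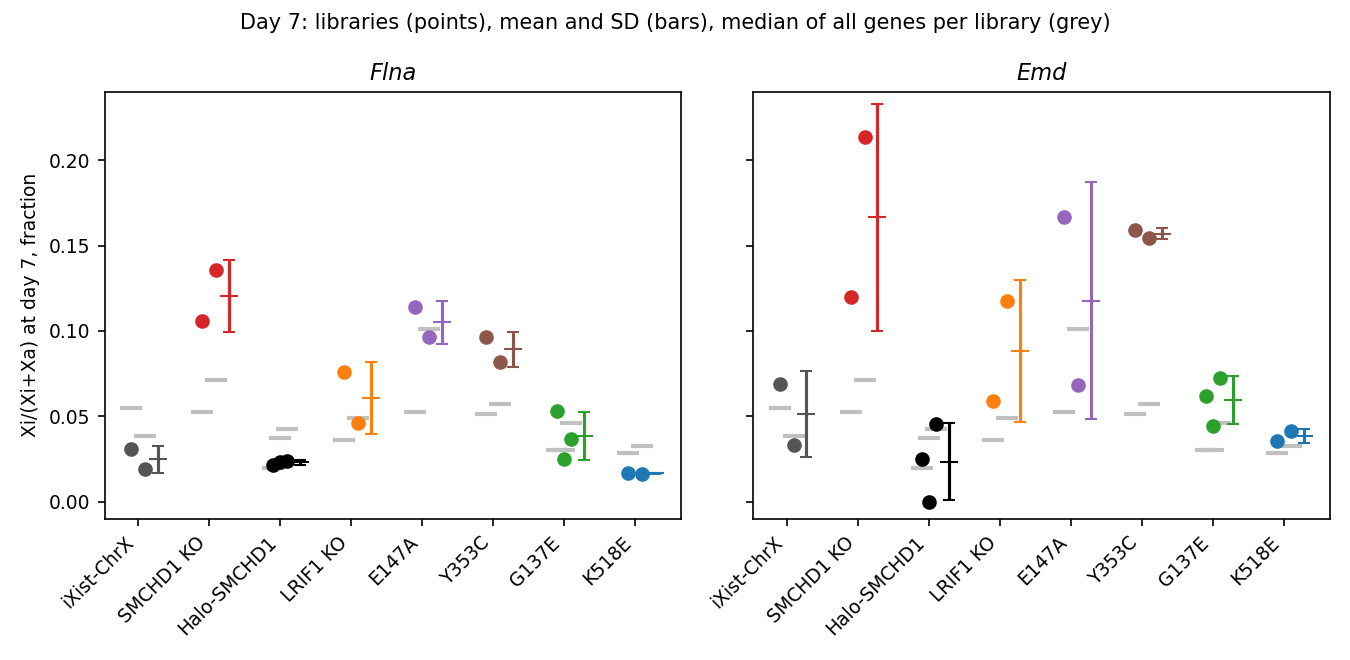
Xi/(Xi+Xa) at day 7 (vertical axis, fraction) of Flna and Emd by line (horizontal axis), with each library as a point, the mean and SD as a bar beside it, and the median of all genes in that library as a grey dash. Flna lies between 0.0215 and 0.0239 in Halo-SMCHD1 and between 0.106 and 0.135 in SMCHD1 KO, and the E147A library at 0.0961 has a library median of 0.101.

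In the comparisons that chose the pair, the day 7 mean of Flna was 4.85 times that of iXist-ChrX in SMCHD1 KO, 4.58 times that of Halo-SMCHD1 in E147A and 3.89 times in Y353C. For Emd these ratios were 3.26, 5.03 and 6.71. Leaving out 1 library at a time, an alternative chosen after seeing the data, gave ratios of 3.96 to 6.26, 4.19 to 4.96 and 3.58 to 4.20 for Flna. For Emd they were 2.34 to 5.00 in SMCHD1 KO (lowest without SMCHD1 KO replicate 2, highest without iXist-ChrX replicate 1). In E147A they were 2.93 (without E147A replicate 1) to 9.52 (without Halo-SMCHD1 replicate 3), and in Y353C 4.47 (without Halo-SMCHD1 replicate 2) to 12.7 (without replicate 3). Every library was higher than every control library for both genes in SMCHD1 KO, E147A and Y353C, as it was for 69 (27.7%), 115 (46.2%) and 105 (42.2%) of all 249 genes. In difference of fractions, 10 genes exceeded Flna and 7 exceeded Emd in SMCHD1 KO. In E147A 34 and 19 genes did, and in Y353C 15 and 1.

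The position of Flna among all genes of a library differed between lines. Apart from LRIF1 KO, the libraries are those that chose the pair, so these positions are not independent of the choice. In iXist-ChrX 29.3% and 28.1% of the 249 genes had a lower Xi fraction than Flna, and in Halo-SMCHD1 at day 7 52.2%, 34.1% and 30.9% did. In SMCHD1 KO 74.3% and 71.9% were lower, and in Y353C 71.5% and 63.5%. The E147A libraries split, at 75.9% in replicate 1 and 47.8% in the library of unmatched number, and so did LRIF1 KO, at 74.3% and 47.8%. Flna was therefore no higher within its library than the median gene in 1 library each of E147A and LRIF1 KO. For Emd 83.9% of the genes were lower in E147A replicate 1 and 33.3% in the E147A library of unmatched number, so that Emd was below the median gene there. Below Emd were 78.3% and 88.4% in SMCHD1 KO, 86.7% and 84.7% in Y353C, and 65.9% and 74.7% in LRIF1 KO. In Halo-SMCHD1 at day 7 55.8%, 0% and 52.2% were below Emd, and in iXist-ChrX 60.6% and 42.2%.

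LRIF1 KO was not used to choose the pair, although it was set against the same Halo-SMCHD1 libraries as E147A and Y353C. Its day 7 mean was 2.65 times that of Halo-SMCHD1 for Flna and 3.77 times for Emd, and both of its libraries were above all 3 Halo-SMCHD1 libraries for both genes, as for 53 of 249 genes (21.3%). The limma difference in log2 odds was 1.13 for Flna (SE 0.30, 95% interval 0.48 to 1.78, adjusted p = 0.133) and 1.91 for Emd (SE 0.65, 95% interval 0.50 to 3.31, adjusted p = 0.248). Without Halo-SMCHD1 replicate 2, the library in which Emd is listed at 0, the difference of Emd was 1.18 (limma adjusted p = 0.416). Neither passed after adjustment over 249 genes, of which 0 passed (0%) and 28 were at an unadjusted p under 0.05.

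For G137E at day 7, Flna was higher than Halo-SMCHD1 in all 3 libraries, at 1.67 times the mean, and was 1 of 8 genes of 242 without overlap in that direction (3.31%). Emd was at 2.55 times the mean and overlapped. The limma difference was 0.54 for Flna (SE 0.24, 95% interval 0.0040 to 1.07, adjusted p = 0.589) and 1.41 for Emd (SE 0.54, 95% interval 0.21 to 2.61, adjusted p = 0.543). Without Halo-SMCHD1 replicate 2 the difference of Emd was 0.68, and without G137E replicate 1 that of Flna was 0.31. For K518E at day 7, Flna was lower without overlap, at 0.718 times the mean, as were 25 of 242 genes (10.3%), and Emd was at 1.64 times the mean and overlapped. The limma difference was -0.32 for Flna (SE 0.27, 95% interval -0.92 to 0.27, adjusted p = 0.897) and 0.87 for Emd (SE 0.60, adjusted p = 0.893). Without Halo-SMCHD1 replicate 2 that of Emd was 0.15. No gene passed for either line (0%), with 20 at an unadjusted p under 0.05 in G137E and 12 in K518E. These comparisons share the Halo-SMCHD1 libraries with those that chose the pair.

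Whether the mutants differed from Halo-SMCHD1 by another amount at day 5 than at day 7 was tested in the same limma fit. For K518E the day 5 difference minus the day 7 difference was -0.33 for Flna (SE 0.40, adjusted p = 0.788) and -1.98 for Emd (SE 0.89, adjusted p = 0.665). For G137E it was -0.35 for Flna (SE 0.38, adjusted p = 0.996) and -2.00 for Emd (SE 0.85, adjusted p = 0.936), all by limma. The day 7 differences in this test use the Halo-SMCHD1 day 7 libraries that chose the pair, with Emd at 0 in 1 of them, so these values are not independent of the choice either.

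From day 5 to day 7 no change of Flna passed the test. The limma change was -0.23 in Halo-SMCHD1 (SE 0.27, 95% interval -0.82 to 0.37, adjusted p = 0.563), 0.12 in G137E (SE 0.27, 95% interval -0.48 to 0.72, adjusted p = 0.79) and 0.10 in K518E (SE 0.29, 95% interval -0.55 to 0.76, adjusted p = 0.995). In Halo-SMCHD1 it was -0.053 without day 5 replicate 1 and -0.40 without day 5 replicate 2. In K518E the change of Flna ran from 0.049 to 0.16 with 1 library left out. With the library median subtracted, the change of Flna was 0.66 in Halo-SMCHD1 (limma adjusted p = 0.317), where its sign turned, 0.94 in G137E (limma adjusted p = 0.170) and 0.43 in K518E (limma adjusted p = 0.967). The limma change of Emd in Halo-SMCHD1 was -1.64 (SE 0.60, 95% interval -2.99 to -0.30, adjusted p = 0.087), which did not pass. Among the alternatives it passed only with untransformed fractions, with a replicate block or without day 7 replicate 3. The Halo-SMCHD1 day 7 libraries are those used to choose the pair, which favours low values there, so this change is not independent of the choice. Without the library listed at 0 the change was -0.92. The change of Emd was 0.36 in G137E (SE 0.60, adjusted p = 0.708) and 0.34 in K518E (SE 0.66, adjusted p = 0.966) by limma. Leaving out 1 library gave 0.14 to 0.58 in G137E and 0.16 to 0.52 in K518E. A replicate block gave 0.018 in G137E. With the library median subtracted Emd was at -0.76, 1.18 and 0.66 in these lines, none of which passed. Over all 242 genes, 23 passed in Halo-SMCHD1 (9.5%), 18 in G137E (7.44%) and 1 in K518E (0.413%, Rab39b, lower at day 7), with 88, 75 and 11 at an unadjusted p under 0.05. The first 2 of these counts depended on single libraries and on the scale: with 1 library left out they ran from 0 to 32 and from 0 to 47, and with the library median subtracted they were 2 and 0. Without either day 5 library of Halo-SMCHD1, or either of G137E, they were 0, as they were for G137E without day 7 replicate 1 or 2.

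Relative to its uninduced value, Flna in Halo-SMCHD1 kept 5.61% at day 5 and 4.50% at day 7, where the median gene kept 13.4% and 6.85%. In K518E it kept 2.78% at day 5 and 3.12% at day 7, where the median gene kept 7.44% and 6.08%. In G137E it kept 6.52% at day 5, against 13.2% for the median gene, and 7.34% at day 7, where it was itself the median gene. At day 7 it kept 11.6% in LRIF1 KO, 17.2% in Y353C and 20.1% in E147A. The median gene kept 8.67%, 10.5% and 16.2% in these lines. Emd kept 14.6% at day 5 and 4.79% at day 7 in Halo-SMCHD1, 4.92% and 6.55% in K518E, and 9.34% and 12.4% in G137E. At day 7 Emd kept 15.7% in LRIF1 KO, 28.2% in Y353C and 20.2% in E147A.

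**Figure D3:**
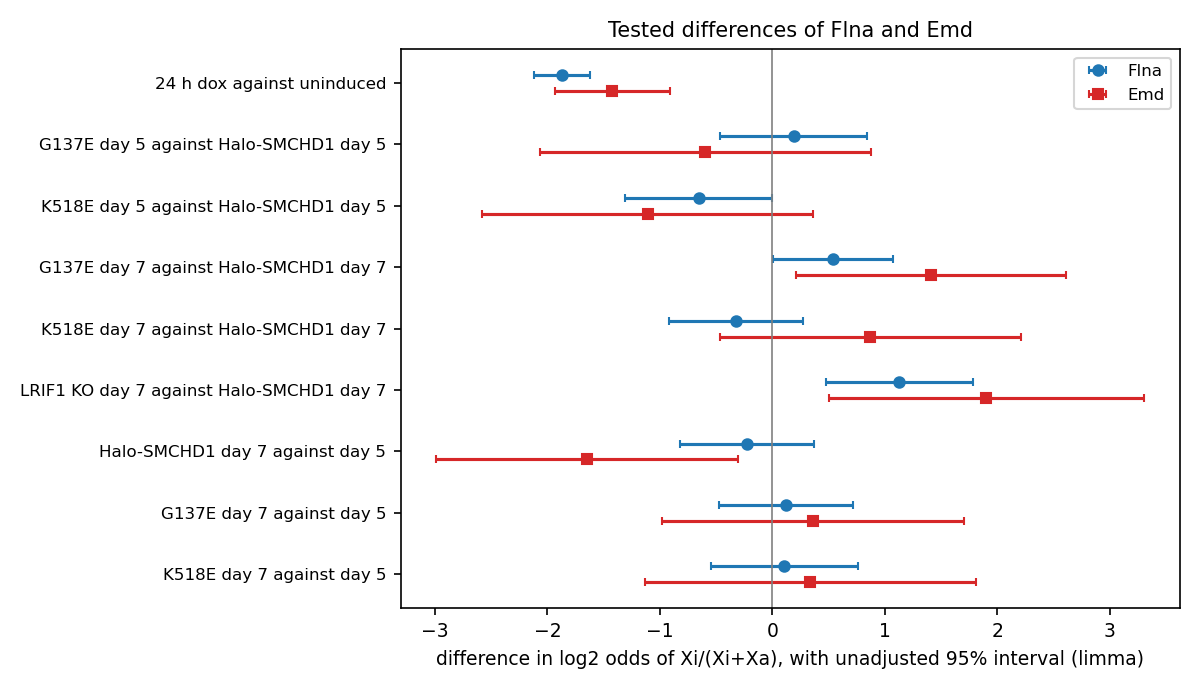
Differences in log2 odds of Xi/(Xi+Xa) (horizontal axis) for Flna and Emd in each tested comparison (vertical axis), with unadjusted 95% intervals from limma. Only the change after 24 h, -1.87 for Flna and -1.42 for Emd, passed the adjusted threshold, and the intervals of Emd are wider than those of Flna in every comparison.

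Flna varied less between replicates than most genes. The mean SD over the 9 replicated groups without K518E was 0.0116 for Flna, with 59 of 249 genes smaller, and 0.0307 for Emd, with 186 smaller. The median gene had 0.0182. In the table with K518E, over 6 groups, Flna had 0.00555, with 33 of 242 genes smaller, and Emd 0.0135, with 126 smaller, close to the median gene at 0.0131.

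Of the genes around the pair, 31 others were measured within 1 Mb. Irak1, a kinase of Toll-like receptor signalling, lies on the lower side. On the upper side the nearest were Rpl10, a ribosomal protein gene with near-identical copies elsewhere and so of uncertain value, and Dnase1l1. Irak1 was at a mean of 0.0180 ± 0.0134 in Halo-SMCHD1 (SD, n = 3), 0.0339 ± 0.0479 in E147A and 0.0485 ± 0.0113 in Y353C at day 7 (SD, n = 2 each), of which the E147A difference lies within its spread. It was at 0.0403 ± 0.00254 in iXist-ChrX against 0.0792 ± 0.0110 in SMCHD1 KO (SD, n = 2 each). Rpl10 was high throughout, at 0.25 in Halo-SMCHD1, 0.227 in LRIF1 KO, 0.305 in E147A and 0.299 in Y353C. It was at 0.296 in iXist-ChrX against 0.352 in SMCHD1 KO. Dnase1l1 was at 0.0779 ± 0.0723 in Halo-SMCHD1 (SD, n = 3) against 0.0208 ± 0.0295 in Y353C (SD, n = 2), a difference within its spread. It was at 0.0714 ± 0.101 in E147A and 0.0381 ± 0.00508 in LRIF1 KO (SD, n = 2 each). In SMCHD1 KO it was at 0.0714 ± 0.101 against 0.0583 ± 0.0354 in iXist-ChrX (SD, n = 2 each).

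Over the 31 neighbours, 13 were higher without overlap in SMCHD1 KO, 15 in E147A, 16 in Y353C and 6 in LRIF1 KO. The shares over all genes were 27.7%, 46.2%, 42.2% and 21.3% in the same order. In SMCHD1 KO 2 neighbours were lower without overlap, as were 7.63% of all genes, and 0 were in E147A, Y353C or LRIF1 KO. None of the 31 had a larger difference than Emd in Y353C or in LRIF1 KO, while 2 did in SMCHD1 KO and 4 in E147A. Compared with Flna, 3 had a larger difference in SMCHD1 KO, 5 in E147A, 5 in Y353C and 4 in LRIF1 KO. The ranks in SMCHD1 KO, E147A and Y353C are not independent of the choice of the pair. The rank of Emd in LRIF1 KO uses the Halo-SMCHD1 library with Emd listed at 0. At day 5, 14 of 29 neighbours measured with K518E were lower in that line without overlap, against 60.7% of all genes.

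**Figure D4:**
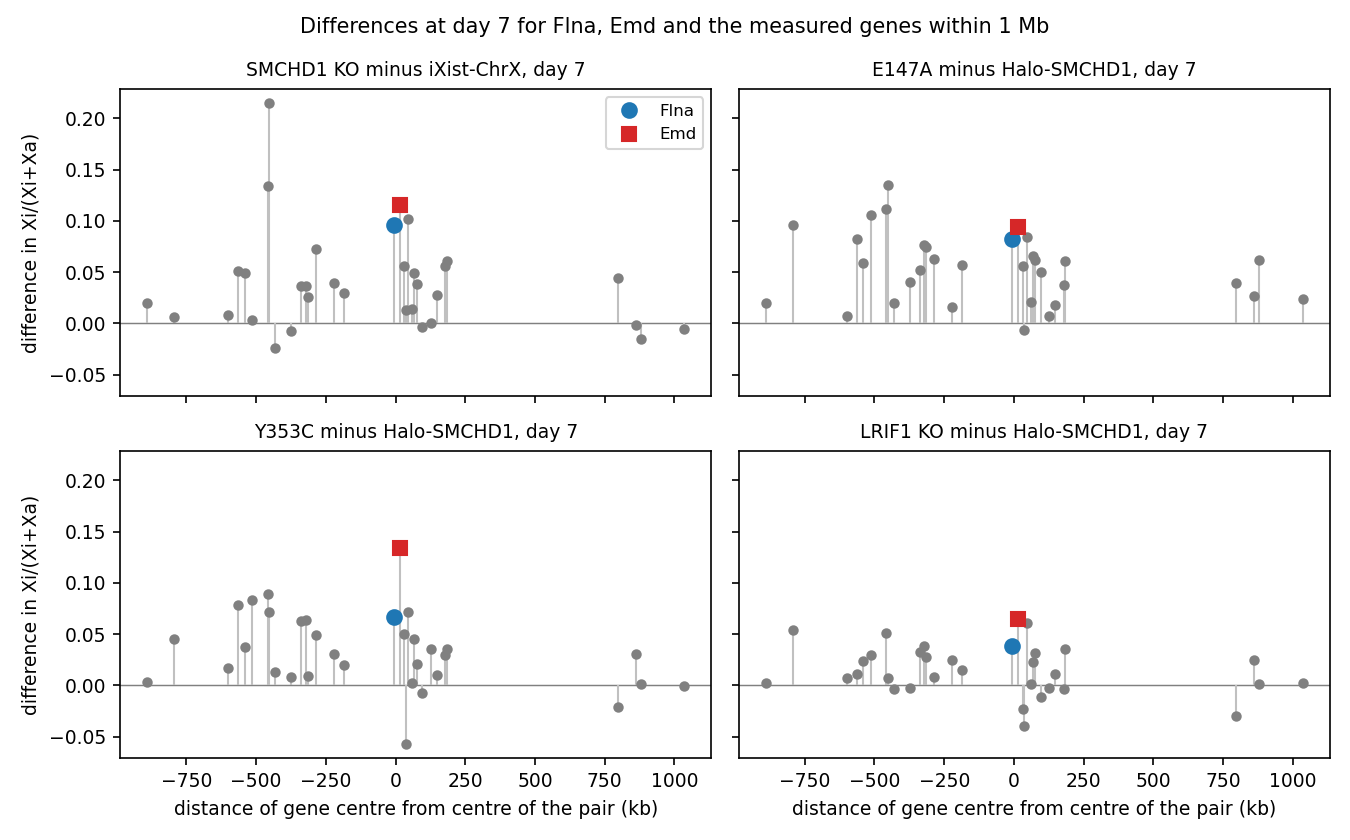
Difference in mean Xi/(Xi+Xa) at day 7 between a line and its control (vertical axis) for Flna, Emd and the 31 other genes measured within 1 Mb (grey), by distance of the gene centre from the centre of the pair in kb (horizontal axis). Emd has the largest of these differences in Y353C (0.133) and LRIF1 KO (0.0649), and larger ones than that of Emd are seen in SMCHD1 KO and E147A. The Y353C value of Emd was used to choose the pair.

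Across the 20 differentiated libraries without K518E, on log2 odds minus the library median, the genes most like Flna were Kif4 (Pearson r = 0.876), a chromokinesin, Bcap31 (r = 0.816), a protein of the endoplasmic reticulum, and Araf (r = 0.788), a RAF kinase. Emd was in place 14 of 248 (r = 0.675). The genes most like Emd were Kif4 (r = 0.742), Araf (r = 0.714) and the deubiquitinase gene Otud5 (r = 0.681), with Flna in place 4. In the 12 libraries left without the loss lines, r between Flna and Emd was 0.347, and the order of the named genes was another one. For Flna, Araf (r = 0.836) then stood above Kif4 (r = 0.746) and Bcap31 (r = 0.618), and for Emd, Araf (r = 0.646) and Otud5 (r = 0.588) above Kif4 (r = 0.469). These values describe libraries that share lines, and the library effect was taken out only through the median. The libraries include those that chose the pair, so the correlations are not independent of the choice.

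Other X-linked genes of the actin cytoskeleton were compared with Flna. Of a list of 19, 11 were measured, Flna included. All 11 passed as lower after 24 h, as did 96.2% of all genes, with a median change in log2 odds of -3.12 against -1.61 over all genes. From day 5 to day 7, Shroom4, an actin-binding protein, and Msn, moesin, fell in Halo-SMCHD1 by limma (9.09% of all genes passed as lower), with changes in log2 odds of -1.04 (adjusted p = 0.0387) and -1.83 (adjusted p = 0.0428), and Msn and Pls3, plastin 3, fell in G137E (7.44% of all genes passed as lower), with changes of -1.84 (adjusted p = 0.0493) and -1.09 (adjusted p = 0.0442). No gene passed in Halo-SMCHD1 without either of its day 5 libraries, nor in G137E without either of its day 5 libraries or without day 7 replicate 1 or 2. No member passed in any other tested comparison. In LRIF1 KO the median difference of the list was 0.16 against 0.26 over all genes.

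The members highest in Halo-SMCHD1 at day 7 were Arhgap4, a GTPase activating protein, Dock11 and Arhgef6, guanine nucleotide exchange factors, and Shroom4. At day 7 Arhgap4 was at a mean of 0.0764 ± 0.0842 in Halo-SMCHD1 (SD, n = 3), 0.109 ± 0.103 in LRIF1 KO, 0.129 ± 0.0640 in E147A and 0.140 ± 0.0485 in Y353C (SD, n = 2 each), differences within the spread of Halo-SMCHD1. Dock11 was at 0.0632 ± 0.0277, 0.107 ± 0.0172, 0.0992 ± 0.0229 and 0.107 ± 0.00447 in these lines. Shroom4 was at 0.0305 ± 0.00926, 0.0425 ± 0.0144, 0.0744 ± 0.0382 and 0.0463 ± 0.00322. Arhgef6 was at 0.0470 ± 0.0363 in Halo-SMCHD1, listed at 0 in both LRIF1 KO libraries, and at 0.0227 ± 0.0321 in E147A and 0.0222 ± 0.0314 in Y353C. In SMCHD1 KO against iXist-ChrX, Arhgap4 was at 0.0781 against 0.0411, Dock11 at 0.100 against 0.0518, Shroom4 at 0.0523 against 0.0590 and Arhgef6 at 0.0303 against 0.0132.

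Of 6 genes of the nuclear envelope and nuclear transport, Emd and Thoc2, a subunit of the TREX mRNA export complex, were measured. Both passed as lower after 24 h, as did 96.2% of all genes, and neither in another comparison. Thoc2 was at a mean of 0.0774 ± 0.0237 in Halo-SMCHD1 (SD, n = 3), 0.110 ± 0.0141 in LRIF1 KO, 0.127 ± 0.0745 in E147A and 0.0827 ± 0.00903 in Y353C (SD, n = 2 each) at day 7. Emd was at 0.0234 in Halo-SMCHD1, 0.0882 in LRIF1 KO, 0.118 in E147A and 0.157 in Y353C. In SMCHD1 KO against iXist-ChrX, Thoc2 was at 0.116 against 0.0675 and Emd at 0.167 against 0.0511.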

How the data were processed

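ChrRNA-seq was made with a stranded total RNA kit and sequenced as paired-end reads of 81 bases, per the labels. The authors removed rRNA reads with Bowtie2, used STAR on mm10 with strain SNPs masked as N, kept uniquely aligned reads, split them by strain with SNPsplit and counted them over whole transcripts with featureCounts. The deposited values are fractions, Xi/(Xi+Xa) per gene and library, which the authors computed for genes with enough SNP-covering reads. They are not normalized between libraries, and the depth is unknown.

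There are separate tables without K518E (249 genes, 30 libraries) and with it (242 genes, 20 libraries). The 239 genes and 14 libraries they share have the same values. Comparisons of G137E and K518E, and all of day 5 with day 7, used the latter, the other day 7 comparisons the former, and the 24 h comparison the shared genes. No pair of libraries was identical, and 0 columns belonged to other samples.

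Fractions were tested as log2((r + 0.01)/(1 - r + 0.01)) with limma 3.58.1 in R 4.3.3, with one fit of all differentiated libraries of a table, Benjamini-Hochberg adjustment over all its genes and a threshold of 0.05. The 24 h comparison had line as a block. The procedure was tested on simulated data with added changes of 3 in log2 odds, or 1 for the 24 h comparison. Changes as small as those of Flna and Emd at day 5 and day 7 were not simulated. The members, the gene lists and the comparisons were chosen with earlier results of these data known. Besides Flna and Emd, the text names the 3 genes most correlated with each, the 2 nearest measured genes on either side (1 of them is not reported here), and up to 4 members of each list with the highest Halo-SMCHD1 mean at day 7. Actin genes that passed a test, Msn and Pls3, and Rab39b were named after their values were seen. Deposited lower coordinates are 1 base below GENCODE for 88 of 240 matched genes, Flna and Emd included, and the deposited upper ends of both genes lie inside GENCODE. Replicate numbers were not found to pair libraries.

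Alternatives were other pseudocounts (0.001 and 0.05), untransformed fractions, values minus the library median, genes of 0.25 to 0.75 before induction, only the compared libraries, the other table, a replicate block and leaving out each library. For the 24 h comparison they were also an exact sign-flip permutation over the 6 lines, no block for line and leaving out each line. Added after seeing the data were LRIF1 KO without the 2 iXist-ChrX libraries and the E147A library of unmatched number, and the ratios without each library.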

Additional observations from a re-analysis of the deposited data

How the results depend on the processing

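The fall of Flna and Emd after 24 h kept its direction and its side of the threshold in 25 of 26 alternatives; for Emd it turned to 0.19 once the library median was subtracted. Of 198 alternatives for the members in the other comparisons, 191 kept direction and call. No member passed in the main setting of these comparisons, so a kept call means only that it again did not pass. The size could still change. Flna in K518E at day 5 went from -0.66 to -0.044 with the library median subtracted and counts as kept. With the library median subtracted, Flna from day 5 to day 7 in Halo-SMCHD1 turned to 0.66. Leaving out 1 library gave -0.0571 to 0.44 for Flna in G137E at day 5 (below 0 without G137E day 5 replicate 2) and -0.129 to 0.37 for Flna from day 5 to day 7 in G137E (-0.129 without day 5 replicate 1 and -0.104 without day 7 replicate 1). Emd from day 5 to day 7 in Halo-SMCHD1 passed the threshold with untransformed fractions (-0.0479, limma adjusted p = 0.0431), with a replicate block (-1.99, limma adjusted p = 0.0354) and without day 7 replicate 3 (-2.19, limma adjusted p = 0.0289, of a leave-one-out range of -2.19 to -0.92). Its adjusted p over all alternatives ran from 0.0289 to 0.575, and its day 7 libraries are among those that chose the pair, so that no such p is independent of the choice. The cause was not tested. Same-numbered libraries deviated together with correlations from -0.209 to 0.146, so no pairing by number was found. Counts of called genes from day 5 to day 7 depended on the setting. In Halo-SMCHD1 the 23 became 0 with pseudocount 0.001, 42 with 0.05, 62 untransformed, 2 with the median subtracted, 2 with only the compared libraries, 76 with the block, 6 in the other table and 0 to 32 with 1 library left out. In G137E the 18 became 0, 42, 50, 0, 0, 56 and 2 in the same order, and 0 to 47 with 1 library left out. In K518E the 1 became 0 untransformed, 0 with the median subtracted and 0 with only the compared libraries. For G137E at day 5 the 0 became 1 in the other table, for K518E at day 5 the 1 (higher) became 2 with only the compared libraries (both lower), 1 that was lower with untransformed fractions, and 1 to 2 with 1 library left out, and for LRIF1 KO the 0 became 1 with only the compared libraries and 0 to 1 with 1 library left out. With 2 or 3 libraries a group and unknown depth, small differences could not be resolved, least of all for Emd.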
